A study of Mus musculus with 158 samples.

Results

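The sites described here are stretches of mouse chromatin that DNase I cut readily in liver and in kidney, and that were not called accessible in lung or B cells. They were chosen by their own readout. DNase I hotspots of the 20 adult sets that overlapped by 1 bp or more on the autosomes were merged, and a merged region was kept where it held a hotspot in 3 or more of 5 liver sets, in 3 or more of 5 kidney sets and in no lung or B cell set. Of 714403 merged regions, 15152 passed, which is 2.12% of them. Presence in each tissue, hotspot width and hotspot strength are therefore given as description, with no test.

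Nuclei came from F1 hybrid mice with a C57BL/6J mother. Each hybrid is named for its father's strain or species. The father was SPRET/EiJ for B6xSPRET, PWK/PhJ for B6xPWK, CAST/EiJ for B6xCAST and C3H/HeJ for B6xC3H. For B6x129 it was the SvImJ line of the strain in the hybrid's name. The labels name no treatment, and the study's methods give an age of 8 weeks at death. Whole liver, both kidneys and all lung lobes were used, typically pooled from 4 mice, so each solid tissue is a mixture of cell types. B cells came from femoral marrow of females by depletion of cells bearing CD43 or Mac-1. The authors pooled all samples of a hybrid and tissue before calling hotspots, so the hybrid is the repeat (n = 5 per tissue), the spread given below is the spread between hybrids, and no replicate spread exists within a set. In bulk tissue, fewer cells of a type and less accessibility per cell cannot be told apart.

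Liver and kidney both reclaim, convert and export metabolites. Hepatocytes and the epithelium of the proximal tubule share gluconeogenesis, amino acid breakdown, drug conjugation and many solute carriers. Factors that bind the HNF1 and HNF4 patterns, which are homeodomain proteins and nuclear receptors in that order, are made in both epithelia and are known to activate genes of these pathways. A DNase I hotspot marks DNA freed of nucleosomes, most often by bound transcription factors, at a promoter or a distal regulatory element.

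Sequences of sites with an HNF1 or HNF4 recognition pattern are shown first, because these patterns were more frequent in the sites than in the other regions compared below. The windows are the 200 bp around the centre of the stretch that the most sets covered, read from the RefSeq copy of GRCm38 (mm10), forward strand, 5′ to 3′, with the pattern in capitals. By rule they are, for each pattern, the 3 sites with a hotspot in all 10 liver and kidney sets whose weakest hotspot had the highest percentile within its set. Where a window touched an annotated UTR, only 30 bases around the pattern are printed.
HNF1 site in an intron of Prlr, chr15:10225822-10226021: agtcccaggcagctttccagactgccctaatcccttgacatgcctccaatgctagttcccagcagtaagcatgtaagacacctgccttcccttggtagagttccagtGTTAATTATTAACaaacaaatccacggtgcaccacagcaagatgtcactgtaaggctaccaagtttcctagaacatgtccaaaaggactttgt
HNF1 site in an intron of Pde4dip, chr3:97756861-97756890: caagagaacgGTTAATGATTtacctggtta
HNF1 site at an exon of D1Ertd622e, chr1:97614603-97614632: tgGTTAATAATTccttaccctgtcattgaa
HNF4 site upstream of Pcsk5, chr19:18176371-18176570: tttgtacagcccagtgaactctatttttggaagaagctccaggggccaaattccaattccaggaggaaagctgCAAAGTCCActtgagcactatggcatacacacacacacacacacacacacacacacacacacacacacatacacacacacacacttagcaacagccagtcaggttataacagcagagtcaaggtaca
HNF4 site in an intron of Gabbr2, chr4:46959877-46960076: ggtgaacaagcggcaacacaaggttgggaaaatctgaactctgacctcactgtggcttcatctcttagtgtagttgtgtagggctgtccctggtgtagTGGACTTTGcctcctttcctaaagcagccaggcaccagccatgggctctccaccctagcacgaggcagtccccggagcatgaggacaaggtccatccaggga
HNF4 site in an intron of Fggy, chr4:95793959-95794158: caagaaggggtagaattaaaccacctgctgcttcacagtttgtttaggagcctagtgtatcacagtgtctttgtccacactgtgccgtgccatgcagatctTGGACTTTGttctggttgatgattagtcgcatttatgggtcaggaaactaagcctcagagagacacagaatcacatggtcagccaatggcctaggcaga

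The capitals of the Prlr window hold 2 overlapping matches, 1 on each strand, which together form an inverted repeat. Prlr encodes the prolactin receptor, and the site lay 1.94 kb downstream of its nearest transcription start site (TSS). In the liver sets this site reached a −log10 FDR of 100, the ceiling of the file, in all 5 hybrids. In the kidney sets it stood at 60.6 in B6x129, 71.7 in B6xSPRET and the ceiling in the other three. The Pcsk5 site lay 338.8 kb upstream of the gene for a proprotein convertase. It was at the ceiling in all 5 liver sets and in 3 kidney sets, with 92.1 in B6xCAST kidney and 87.8 in B6xPWK kidney. The Hook1 TSS, 173.2 kb away, was the nearest to the site inside Fggy. That site was at the ceiling in all liver sets and ran from 76.6 to 100 in the kidney sets. These −log10 FDR values rank hotspots within a set, and no difference between sets is read from them.

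Most of the sites were seen in every hybrid. All 5 liver and all 5 kidney sets held 8138 of them (53.7%), and only 421 (2.78%) sat at the lower limit of 3 and 3. Liver sets covered from 85.3% of the sites in B6xSPRET to 97.8% in B6x129, and kidney sets from 82.9% to 96.2% in the same hybrids. B6xSPRET, whose father is of another species, lacked 2232 sites in liver and 2595 in kidney. Both organs lacked 630 of them. B6xSPRET also had the fewest hotspots of the 5 hybrids in liver (205195) and in kidney (181072). The study lists the fewest analysed reads for this hybrid in both organs. Species, depth and read mapping cannot be told apart here. The rule caps missing sets at 2 per tissue, so these shares are descriptive.

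Regions just outside the rule were numerous. A further 4805 regions met both the liver and the kidney limit but had a hotspot in exactly 1 lung or B cell set. That set was a lung set for 4090 of them (85.1%), mostly B6xCAST lung with 2128 and B6x129 lung with 1401, which are also the lung sets with the most hotspots (273104 and 253858). Within that set the extra hotspot had a median strength percentile of 22.8, against 60.4 for the same regions in the liver and kidney sets. Another 2651 regions fell short by having 2 liver sets and 2531 by having 2 kidney sets. The sites with exactly 3 and 3 sets had a median percentile of 29.7 and a median width of 288 bp, while those in all 10 sets had 71.8 and 678 bp.

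Among the 15 combinations of tissues, sharing by liver and kidney alone was the most frequent kind of 2-tissue region. It accounted for 45.0% of the 33670 regions found in exactly 2 tissues. Kidney and lung alone shared 8360 regions, liver and lung 6297, lung and B cells 2783, liver and B cells 589, and kidney and B cells 489. The number of hotspots differed between tissues, with 205195 to 286482 per liver set, 181072 to 232440 per kidney set, 147871 to 273104 per lung set and 76055 to 151020 per B cell set, and fewer B cell hotspots make absence from B cells easier to reach. With only the top 75000 hotspots of each set, 6338 regions met the rule, and 3196 of the 15152 sites (21.1%) overlapped them.

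**Figure D1:**
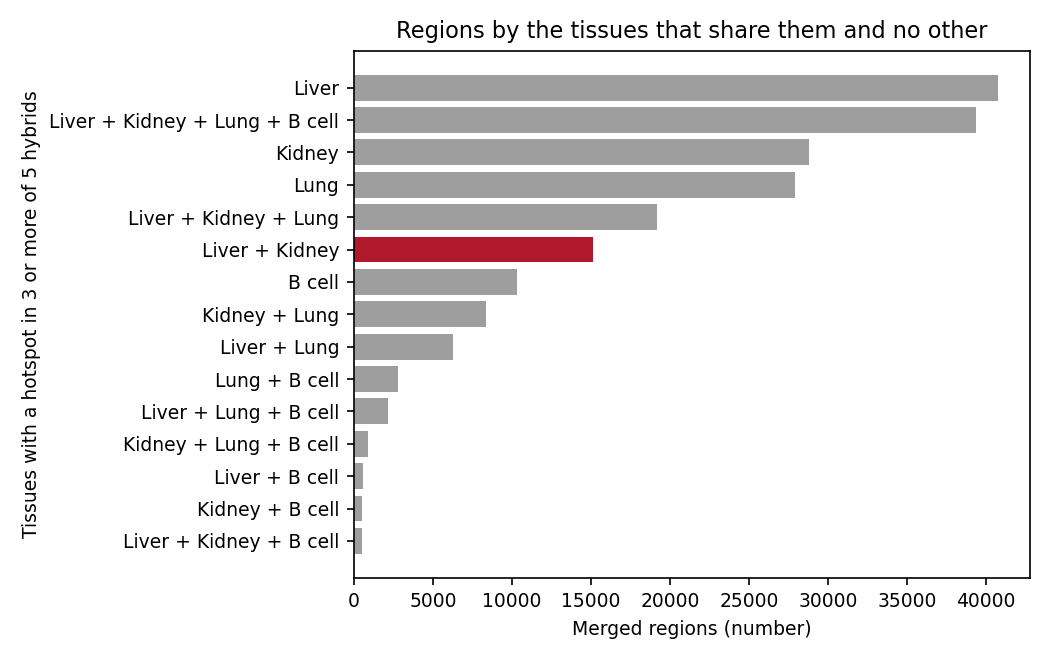
Number of merged regions (horizontal axis) for each of the 15 combinations of tissues (vertical axis) with a hotspot in 3 or more of 5 hybrids in each named tissue and in no set of any other. The liver and kidney bar, in red, stands at 15152, the highest of the 6 pairs.

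The ranking of pairs was not the same in each hybrid taken alone. Regions with hotspots in liver and kidney but not lung or B cells were the most frequent pair in B6x129 (30647), B6xC3H (32653), B6xPWK (30979) and B6xSPRET (25217). In B6xCAST the kidney and lung pair was more frequent, with 27571 regions against 20527 for liver and kidney.

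A hybrid that took no part in the choice showed the same tissue pattern. For each hybrid in turn, sites were chosen on the other 4 hybrids with 3 or more of 4 liver and kidney sets and no lung or B cell set, which gave 12977 to 15057 sites, and the left-out hybrid was then read. Its liver held a hotspot at 91.6% ± 5.01 of them and its kidney at 90.9% ± 5.38, against 4.78% ± 5.18 of them in lung and 1.10% ± 1.14 for B cells (n = 5 hybrids, mean ± SD). The difference between liver and kidney on the one side and lung and B cells on the other was 88.3 percentage points, from 82.5 to 92.6 over the 5 hybrids. Each hybrid also helped to choose the sites when another was left out, so the 5 differences are not independent, and they are given with no p.

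Hybrids differed in how much of the pattern they repeated. In liver the values were 97.8% for B6x129, 89.2% for B6xC3H, 91.9% for B6xCAST, 94.3% for B6xPWK and 84.6% for B6xSPRET. In kidney they were 96.1%, 89.9%, 92.8%, 93.7% and 82.1% in the same order, so B6xSPRET was lowest in both organs. In lung they were 7.94%, 0.669%, 12.4%, 1.60% and 1.3%, so B6xCAST and B6x129 stood above the other 3. In B cells they were 0.678%, 0.182%, 3.04%, 1.17% and 0.441%. Lung exceeded B cells in all 5 hybrids, and liver exceeded kidney in 3 of 5. The full pattern of liver and kidney without lung and B cells held for 79.2% ± 7.47 of the sites. Regions chosen in the same way as liver only had a kidney hotspot in 2.57% ± 1.28 of cases in the left-out hybrid, and those chosen as kidney only had a liver hotspot in 3.52% ± 3.03.

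**Figure D2:**
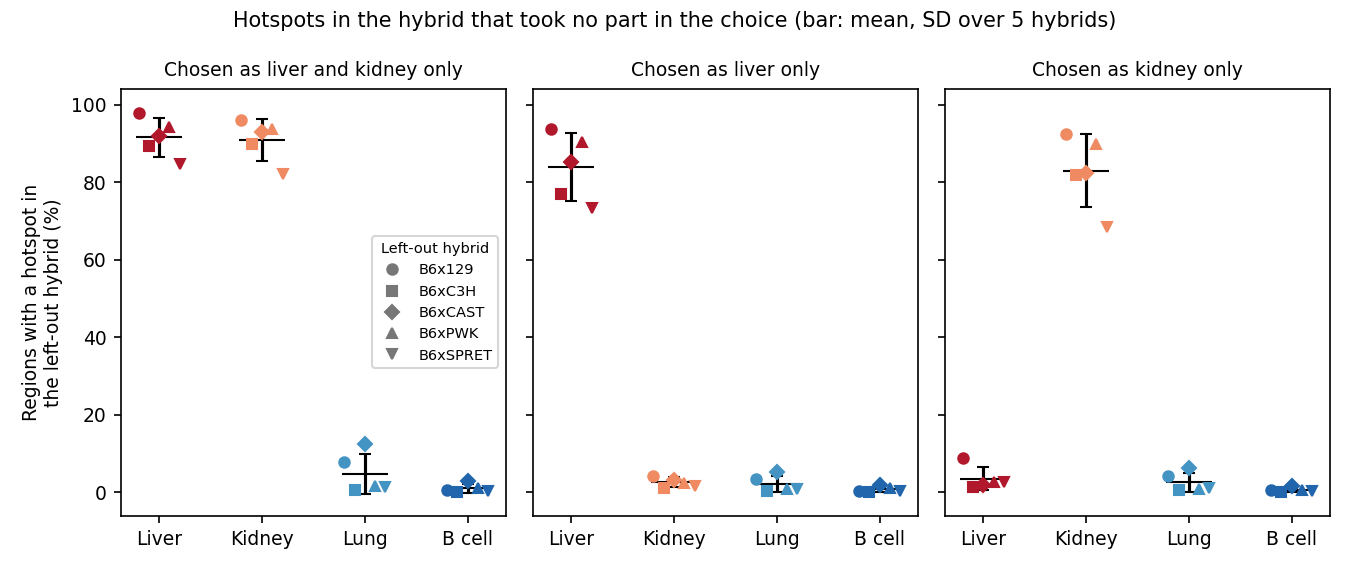
Share of regions (vertical axis, %) with a hotspot in each tissue (horizontal axis) of the hybrid left out of the choice, for regions chosen on the other 4 hybrids as liver and kidney only, liver only or kidney only. Each symbol is a hybrid, and bars give the mean and SD of 5. For liver and kidney only, all liver and kidney points lie at 82.1% or above and all lung and B cell points at 12.4% or below.

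Marker genes were checked against the tissue names. All 5 hepatocyte markers had a hotspot within 1 kb of a TSS in all 5 liver sets, all 5 nephron markers in all 5 kidney sets, all 5 lung epithelial markers in all 5 lung sets and all 5 B cell markers in all 5 B cell sets. Markers of other cell types were not absent: endothelial markers had hotspots in 18 of 20 combinations of gene and set in liver and in 20 of 20 in kidney, and hepatocyte markers in 17 of 25 in kidney. B cell markers had hotspots in 23 of 25 combinations in lung. Lung epithelial markers had them in 13 of 25 in liver, and hepatocyte markers in 7 of 25 in lung. Nephron markers had them in 11 of 25 in lung and 4 of 25 in liver. In bulk tissue, a marker's hotspot in another tissue cannot be assigned to a shared cell type or to another source. The part of shared cell types, or of any other source of such hotspots, in the sites was not tested.

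The sites were wider than most regions, at a median of 542 bp (10th to 90th percentile 295 to 1289 bp). Liver only regions had a median of 335 bp, kidney only regions 328 bp, liver and lung only regions 523 bp and regions of all 4 tissues 963 bp. A merged region joins the hotspots of all its sets, so its width can grow with the number of sets the rule asks for. Strength was more often higher in liver than in kidney when each hotspot was placed on its own set's percentile scale. The difference of mean percentiles, liver minus kidney, had a median of 4.95 points. It was within 20 points at 8190 sites (54.1%), over 20 points higher in liver at 4337 (28.6%) and over 20 points higher in kidney at 2625 (17.3%). A hotspot in the top 10% of a liver or kidney set occurred at 5204 sites (34.3%).

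Nearly all sites were distal. A protein-coding TSS lay within 1 kb of 316 sites (2.09%, Wilson 95% interval 1.87 to 2.33), against 5.88% of the 312309 regions with hotspots in 3 or more of 5 hybrids of at least 1 tissue, called reproducible regions here, and 28% of the regions found in all 4 tissues. The share was lower in liver only (1.38%) and kidney only regions (1.49%). Liver and lung only regions had 1.73% (interval 1.44 to 2.08, which overlaps that of the sites). Kidney and lung only regions stood higher, at 2.82% (2.49 to 3.20). Exons held 639 sites (4.22%), introns 8080 (53.3%) and intergenic DNA 6117 (40.4%). The median distance to a TSS was 28.2 kb, close to the 29.5 kb of reproducible regions, and 20.1% lay over 100 kb away. All intervals here cover counting error only. By chromosome, the sites made up from 4.54% of the reproducible regions on chromosome 15 to 5.90% on chromosome 19.

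Few sites were called accessible in embryonic stem cells. The stem cell DNase hotspots came from B6xCAST alone and numbered 112353, fewer than in any liver or kidney set. B6xCAST stem cells (mESC) carried a DNase hotspot at 838 sites (5.53%, interval 5.18 to 5.91), where the background was 17.7% of reproducible regions and 9.47% of all merged regions. Liver only regions had 2.36%, kidney only regions 4.15%, liver and lung only regions 4.70%, kidney and lung only regions 10.6% and regions of all 4 tissues 77.9%. CTCF is the zinc finger protein that anchors chromatin loops. Its ChIP-seq hotspots in the same stem cells overlapped 703 sites (4.64%, interval 4.32 to 4.99), against 14.1% of reproducible and 7.95% of all merged regions. Liver only regions stood at 2.37% and kidney only regions at 1.67% for CTCF. Wider regions have more room for an overlap. Within the fixed 200 bp window, a comparison added after seeing the data, the sites had 4.33% for DNase and 3.66% for CTCF, with liver only at 1.91% and 1.86%. Among the 6338 regions that met the rule with the top 75000 hotspots of each set, the shares were 10.5% for DNase and 7.37% for CTCF, and the background at that setting was not computed.

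Sites near a TSS were also seldom called accessible in stem cells. Of the 316, 25 (7.91%) had a stem cell DNase hotspot, while 70.3% of reproducible regions within 1 kb of a TSS had one. For introns the values were 4.83% against 12.8%, and for intergenic DNA 6.26% against 15.9%. Of the 18353 reproducible regions within 1 kb of a TSS, 11002 were regions of all 4 tissues, which the rule leaves out. Liver only, kidney only and other restricted classes were not compared near a TSS.

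Recognition patterns of transcription factors were searched on both strands in the 200 bp window of every region, as exact letters with N for any base. A match describes the sequence and is not a bound site. HNF1 (GTTAATNATT) matched in 568 sites (3.75%, interval 3.46 to 4.06), where the background was 0.791% of reproducible regions and 0.526% of all merged regions. Kidney only regions had 2.07%, liver only regions 0.616% and liver and lung only regions 0.111%. HNF4 (CAAAGTCCA) matched in 787 sites (5.19%, interval 4.85 to 5.56), against 1.09% of reproducible and 0.746% of all merged regions. Liver only regions had 1.74%, kidney only regions 1.84% and liver and lung only regions 0.365%. For both patterns the interval of the sites lay above that of each of these classes. The rule asks for hotspots in more sets of the sites than of liver only or kidney only regions. The shares rose with the number of sets, as given below, and the classes were not matched for it. Either pattern occurred in 1350 sites (8.91%) and both in 5, so most sites held neither.

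Other liver patterns were less frequent in the sites than in liver only regions. ONECUT (AATCAATA), bound by hepatocyte nuclear factor 6, matched in 0.799% of the sites and 5.84% of liver only regions. FOXA (TGTTTAC), the pattern of the forkhead factors of endodermal organs, matched in 3.62% and 6.64%, and was most frequent in liver and lung only regions at 11.4%. The ERR and NR5A pattern (TCAAGGTCA), of orphan nuclear receptors, matched in 1.17% and 2.43%, and CEBP (TTGCGCAA) in 5 sites and 0.216% of liver only regions. TEAD (ACATTCCA), of the factors that work with YAP, lay between the organs with 1.35% in the sites, 0.864% in liver only and 2.54% in kidney only regions.

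Patterns of blood cell factors were rarer than in reproducible regions as a whole. ETS (ACAGGAAGT) matched in 0.429% against 1.46%, PU.1 (AGAGGAAGT, which shares its last letters with ETS) in 0.304% against 1.45%, RUNX (TGTGGTTT) in 1.31% against 2.09% and EBF (TCCCNNGGGA) in 0.640% against 0.819%. CTCF (AGGGGGCG) matched in 0.33% against 1.38%, and SP and KLF (GGGGCGGGG, whose run of G and C can overlap the CTCF letters) in 0.449% against 1.61%. AP-1 (TGANTCA) matched in 7.75% against 9.08%. Liver only regions were similar to the sites or lower, with 0.415% for ETS, 0.322% for PU.1, 1.35% for RUNX, 0.329% for EBF, 0.189% for CTCF and 0.327% for SP and KLF, so the low shares were not particular to the sites. The remaining patterns lay near the reproducible regions, with GR (AGAACANNNTGT) at 0.488% against 0.454%, the USF E-box (TCACGTGA) at 0.297% against 0.342%, NFI (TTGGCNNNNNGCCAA) at 0.139% against 0.156% and GRHL (AACCGGTT) at 0.0660% against 0.103%.

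**Figure D3:**
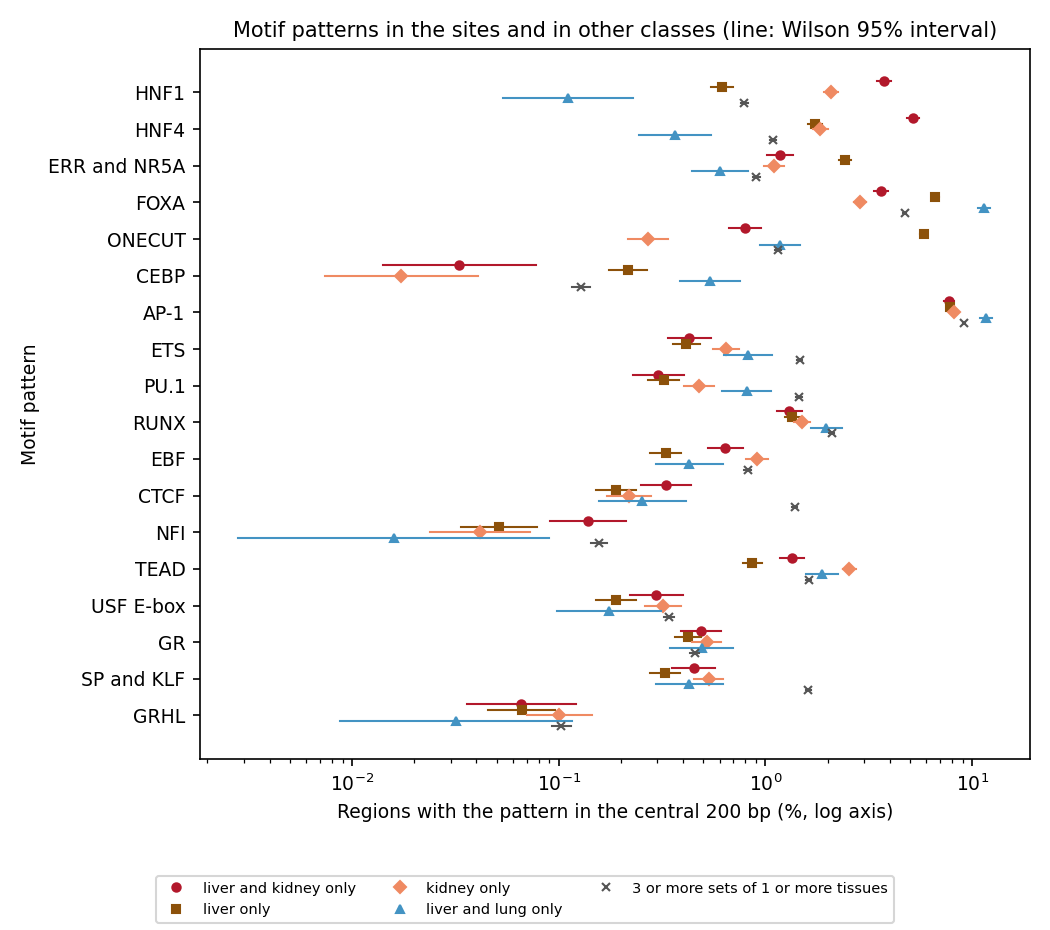
Share of regions with each pattern in the central 200 bp (horizontal log axis, %) for 18 patterns (vertical axis) in 5 groups of regions, with Wilson 95% intervals as lines. The sites, in red, stand highest of the 5 for HNF1 (3.75%) and HNF4 (5.19%), and below reproducible regions for ETS, PU.1, CTCF and SP and KLF.

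Matches to HNF1 and HNF4 lay at the middle of the sites. In the 50 bp on either side of the centre, HNF4 matched in 2.14% and 2.36% of sites, falling to 0.350% and 0.429% in the next 50 bp and to 0.139% and 0.0990% in the bins from 100 to 150 bp. HNF1 matched in 1.45% and 1.60% next to the centre, then 0.416% and 0.363%, then 0.198% and 0.178%. Kidney only regions showed the same shape with lower values for HNF1 (0.708% and 0.864% next to the centre), and liver only regions were lower again (0.243% and 0.206%).

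**Figure D4:**
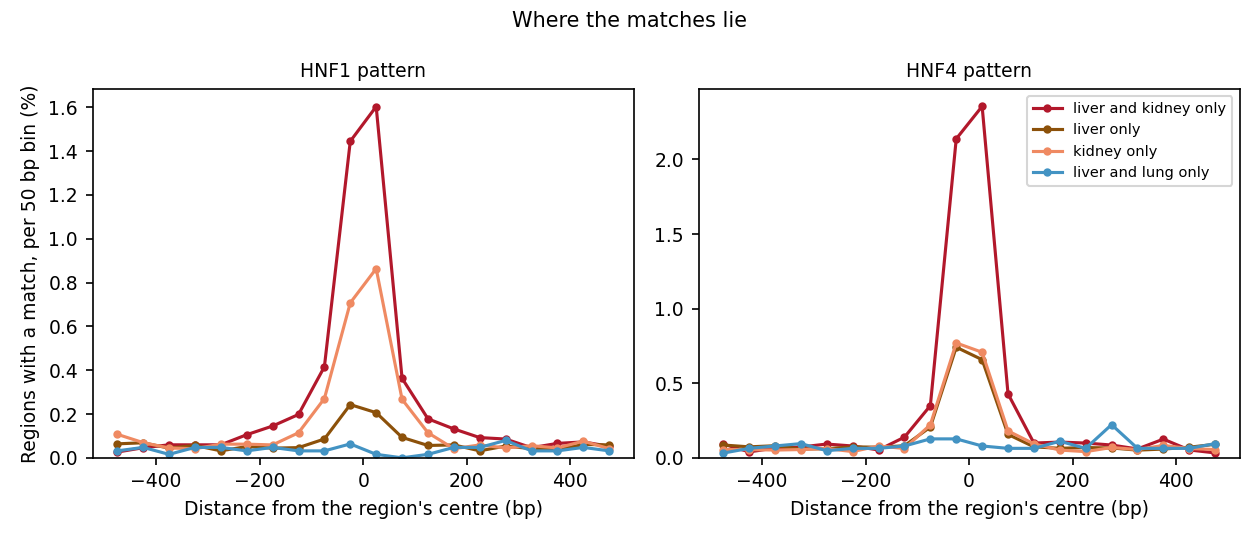
Share of regions (vertical axis, %) with a match to HNF1 (left) or HNF4 (right) per 50 bp bin by distance from the region's centre (horizontal axis, bp), for 4 classes of region. The sites peak at 1.60% for HNF1 and 2.36% for HNF4 within 50 bp of the centre, against 0.243% for HNF1 in liver only regions.

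The median GC content of the window was 47.5% in the sites, 48% in reproducible regions, 45.5% in liver only and 46.5% in kidney only regions. HNF1, a pattern rich in A and T, matched in 11.3% of the sites below 40% GC, where reproducible regions had 2.78%. Between 40% and 50% GC the shares were 3.98% and 0.872%, and between 50% and 60% GC 1.07% and 0.234%. HNF4 varied less with GC, at 4.04%, 5.51% and 5.13% of the sites in these bands against 1.27%, 1.27% and 0.896% of reproducible regions.

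Sites seen in more hybrids held the patterns more often. Among those in all 10 sets, HNF1 matched in 4.89% (interval 4.44 to 5.38) and HNF4 in 6.18% (5.68 to 6.73), while the 421 sites at the limit of 3 and 3 had 1.19% (0.508 to 2.75) and 1.66% (0.808 to 3.39). At that limit the intervals held the shares of liver only regions (0.616% for HNF1, 1.74% for HNF4) and of kidney only regions (2.07% and 1.84%). Strength in either organ gave overlapping intervals. HNF1 matched in 3.14% of those over 20 points higher in liver and in 3.81% of those over 20 points higher in kidney, and HNF4 in 5.40% and 4.65%. Near a TSS, HNF4 matched in 26 of 316 sites (8.23%, interval 5.68 to 11.8).

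The same patterns were then counted away from the sites, in the hotspots of each set that overlapped none of them. Leaving the sites out removed 5.62% to 7.55% of the hotspots of each liver and kidney set and none from lung or B cell sets, and its effect on the contrast was not tested. Each set gave 76055 to 273104 such hotspots, and the 200 bp windows were centred on the hotspot midpoints. These hotspots include those of liver only and kidney only regions and of the regions just outside the rule. The 18 patterns were also chosen with earlier results of these data known. The tests below are therefore not separate support for the shares in the sites. In the order B6x129, B6xC3H, B6xCAST, B6xPWK and B6xSPRET, HNF1 matched in 0.409%, 0.462%, 0.502%, 0.564% and 0.602% of liver hotspots and in 0.974%, 0.951%, 0.743%, 0.927% and 0.961% of kidney hotspots. For lung the shares were 0.236%, 0.254%, 0.192%, 0.248% and 0.257%, and for B cells 0.0912%, 0.0855%, 0.144%, 0.138% and 0.0653%. Kidney thus stood highest in each hybrid and B cells lowest. The HNF1 means were 0.508% ± 0.0771 for liver, 0.911% ± 0.0954 for kidney, 0.237% ± 0.0265 for lung and 0.105% ± 0.0345 for B cells (n = 5 hybrids each, SD). For HNF4 the liver mean was 0.967% ± 0.105 and the kidney mean 1.0% ± 0.0972, while lung had 0.293% ± 0.00791 and B cells had 0.243% ± 0.0110. Liver and kidney sets did not overlap lung and B cell sets for either pattern. The differences of 0.539 and 0.716 percentage points were positive in 5 of 5 hybrids (exact two-sided permutation test with tissue labels exchanged within hybrids, p = 0.000257 each, the smallest that the 7776 arrangements allow, adjusted p = 0.000772 over 18 patterns by Benjamini and Hochberg).

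Of the 18 patterns, 9 passed an adjusted p of 0.05, 4 higher in liver and kidney and 5 lower. The ERR and NR5A pattern was higher (0.922% against 0.392%, adjusted exact p = 0.000772), as was NFI (0.174% against 0.0874%, with overlapping sets, adjusted exact p = 0.00728). ETS (1.01% against 1.89%), PU.1 (0.899% against 2.08%) and RUNX (1.59% against 2.44%) were lower, each with an adjusted exact p of 0.000772. CTCF (1.70% against 2.33%, adjusted exact p = 0.017) and SP and KLF (1.84% against 2.45%, adjusted exact p = 0.00868) were lower too, with overlapping sets, and lost the threshold without B6xC3H (adjusted exact p = 0.0988 and 0.0521) or without B6xPWK (0.0617 and 0.0521). With the top 75000 hotspots of each set, NFI (adjusted exact p = 0.132), CTCF (0.103) and SP and KLF (0.167) did not pass. ONECUT reached 1.93% in liver but 0.351% in kidney, and missed the threshold (adjusted exact p = 0.0616). Hotspots of 1 tissue recur from hybrid to hybrid at the same places, so these tests ask whether the tissues differ over hybrids, not over independent stretches of DNA.

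**Figure D5:**
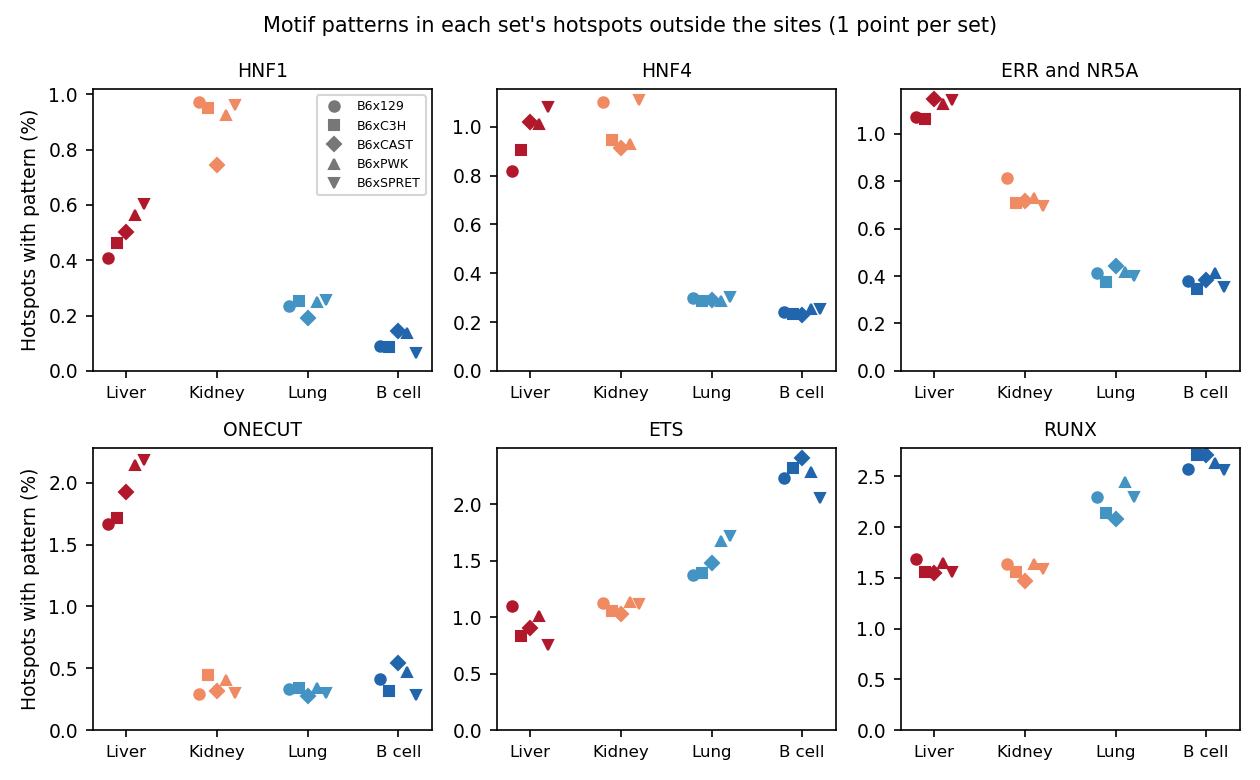
Share of hotspots outside the sites with the pattern (vertical axis, %) in each of the 20 sets, by tissue (horizontal axis) and hybrid (symbol), for 6 of the 18 patterns. HNF1, HNF4 and the ERR and NR5A pattern are higher in all liver and kidney sets than in all lung and B cell sets, and ETS and RUNX are lower.

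The 10 strongest sites by rule, those in all 10 sets whose weakest hotspot ranked highest, were all distal, with 4 in introns and 6 between genes. The file's ceiling tied 37 sites, and the width covered by all 10 sets then ordered them. First stood a site in an intron of Sh3yl1, chr12:30942322-30944702, 32.1 kb downstream of its TSS, which had a stem cell DNase hotspot and a CTCF hotspot. The Map2k5 site named below also had a CTCF hotspot. Next came an intron of App, which encodes the amyloid precursor protein (chr16:85019300-85021940), and the site 338.8 kb upstream of Pcsk5. The remaining 7 lay 94.9 kb upstream of Slc13a1, a renal sulfate transporter, in an intron of Map2k5 (nearest TSS Skor1), 331.9 kb upstream of Tenm3, 71.9 kb upstream of Slc7a12, in an intron of Hunk, 277.4 kb downstream of Inhba, the activin A subunit gene, and 35.2 kb upstream of Tspan33. Of these 10 sites, 5 were at the ceiling in all 10 liver and kidney sets. The Map2k5 site had a value of 67.9 in B6xSPRET kidney, which was the 94.2 percentile of that set. Only the Pcsk5 window held an HNF1 or HNF4 match.

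By locus, meaning the gene body and 10 kb on either side, 6971 of 20807 protein-coding genes (33.5%) held 1 or more sites and 720 (3.46%) held 4 or more. The most sites fell in long genes. Gm20388, a readthrough model spanning 4434.9 kb, held 59, and Fgfr2, whose annotated model spans 2960.9 kb, held 30, at 1.32 and 1.01 sites per 100 kb. Pard3, a cell polarity scaffold, held 24 (4.22 per 100 kb), and Sox6, a transcription factor, and Esrrg, which encodes the orphan receptor ERRγ, held 17 each (2.89 and 2.72 per 100 kb). Gm37240 also held 17. Sipa1l1 (4.63 per 100 kb), Itpr1, the inositol trisphosphate receptor of the endoplasmic reticulum (3.91), Dennd1a (2.75), Nav2 (1.94), Rora, a nuclear receptor (1.86) and Pde4d, a cyclic AMP phosphodiesterase (0.919), held 14 each. Pcsk5, Snx29 and Ptprg held 13 each. Over all protein-coding loci the value was 0.918 sites per 100 kb, and a site in overlapping loci counts for each gene.

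Genes were also read in 11 lists, which cover metabolism and transport, single organs, lung and endothelium, and B cells. Of the 346 genes in all lists together, 46 (13.3%) had 4 or more sites, beside the 3.46% of all genes, and 216 (62.4%) had 1 or more, beside 33.5%. Liver only regions were dense in the metabolic lists too. They stood at 6.94 per 100 kb for nuclear factors, 6.98 for amino acid genes, 7.56 for fatty acid genes, 6.72 for conjugation genes, 4.59 for solute carriers and 3.39 for gluconeogenesis genes, beside 2.33 over all protein-coding loci. The lists were drawn up with results of these data known, so the counts are a description with no test.

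Nuclear factors of hepatic and renal epithelium had a site in 22 of 28 genes, at 3.49 per 100 kb. Esrrg led with the 17 given above. Ppara, the receptor that induces fatty acid oxidation, held 11 sites in a gene of 67.8 kb, against 7 liver only and no kidney only regions. Nr1h4, the bile acid receptor FXR, held 8, Hnf4a 7, and Ppargc1a, a coactivator of gluconeogenic genes, 6. Thrb, a thyroid hormone receptor, held 9 among 123 reproducible regions. Hnf4g, Nr1i2 (the xenobiotic receptor PXR) and Pax2, a developmental factor of the kidney, held 4 each. At Hnf4a, 1 site covered a TSS (chr2:163546446-163547541, present in all 10 sets, weakest percentile 85.1), and the other 6 lay in introns from 1.86 to 13.8 kb away. At Nr1h4, the TSS site (chr10:89504106-89507460) had a weakest percentile of 91.3, and HNF4 matched in 2 of its 8 sites. At Ppara, HNF4 matched in 2 of 11.

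Genes of drug and steroid handling, called conjugation genes here, had a site in 45 of 56 loci (3.48 per 100 kb). Their list also holds enzymes of other kinds, such as the epoxygenase Cyp2j5. Ephx2, soluble epoxide hydrolase, held 7, with no liver only and 2 kidney only regions. Papss2, which makes the sulfate donor, held 8, and Dpyd, of pyrimidine breakdown, 6. Gsta1 and Gsta2, glutathione transferases, held 4 each, and at Gsta1 these were 4 of its 8 reproducible regions. The UDP-glucuronosyltransferases Ugt1a10, Ugt1a6b, Ugt1a7c, Ugt1a9, Ugt1a6a and Ugt1a5 held 10, 9, 9, 9, 6 and 4, but they overlap and share sites. Sites in Gsta and Ugt genes lie among near-identical copies, where read mapping is less certain.

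Genes of solute and organic ion transport, called solute carriers elsewhere here, had a site in 48 of 63 (2.54 per 100 kb). Slc4a4, the sodium bicarbonate cotransporter, held 10, Slc22a23 and Slc25a13, the mitochondrial aspartate and glutamate carrier, 8 each, and Slc47a1, an exporter of organic cations, 6, with no liver only and 5 kidney only regions. Abcc2, an exporter of conjugates, Slc16a10 and Slc3a1, of cystine uptake, held 5 each, and Abcg2, Pdzk1, Slc16a12, Slc22a28 and Slc7a7 held 4 each. Amino acid and one-carbon genes had a site in 32 of 45 (2.78 per 100 kb). Gldc, of the glycine cleavage system, held 10 in 77.0 kb, Pcca, a subunit of propionyl-CoA carboxylase, held 6, and Cbs, Ddc and Ivd held 4 each. Fatty acid oxidation genes had a site in 28 of 42 (3.12 per 100 kb), led by Scp2 with 6, Acsm1 and Acsm2 with 5 each, and Acot12 and Acsm5 with 4 each. Gluconeogenesis and fructose genes had a site in 11 of 15 (3.55 per 100 kb), with 8 at Pcx, pyruvate carboxylase, and 2 each at G6pc, Pck1 and Slc2a2.

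The other lists were mixed. Plasma protein genes of liver had a site in 16 of 29 loci (2.30 per 100 kb) beside 12.3 liver only regions per 100 kb, and C8a, with 5, was the one gene with 4 or more. Alb, the albumin gene, held no site and 4 liver only regions. It was not without hotspots elsewhere: within 1 kb of its TSS, all 5 kidney sets and all 5 lung sets had one. Nephron segment genes had a site in 5 of 24 (0.697 per 100 kb) beside 5.28 kidney only regions per 100 kb. Epithelial genes had a site in 6 of 17, lung and endothelial genes in 3 of 15 and B cell genes in 0 of 12. Low counts in the lung and endothelial and B cell lists were partly set by the rule, which allows no lung or B cell hotspot.

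Promoter sites were counted separately. A site lay within 1 kb of a TSS of 298 protein-coding genes (1.43%), and 45 of the 346 listed genes (13%) were among them. Conjugation genes had 16 of 56, solute carriers 10 of 63, plasma protein genes 5 of 29, amino acid genes 4 of 45, nuclear factors 3 of 28, fatty acid genes 3 of 42, gluconeogenesis genes 2 of 15 and nephron genes 2 of 24. The epithelial, lung and endothelial, and B cell lists had none. The rule leaves out regions with a lung or B cell hotspot, so the absence of lung, endothelial and B cell genes was partly set by it. Named here after their values were seen, the strongest were the promoters of Cyp2j5, an epoxygenase (weakest percentile 91.9), Nr1h4 (91.3), Cyp2d26 (89.3), Ugt3a2 (88.3), Glyat, glycine N-acyltransferase (85.1) and Hnf4a (85.1). The promoter site of G6pc, glucose-6-phosphatase (chr11:101367086-101371633), held an HNF1 match, and those of Agxt2, Glyat, Pdzk1 and Slc3a1 held an HNF4 match.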

How the data were processed

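DNase-seq hotspots of adult liver, kidney, lung and B cells of 5 F1 hybrids were analysed (20 sets from 138 libraries), with stem cell DNase-seq and CTCF ChIP-seq hotspots of B6xCAST. Per the labels and the study's methods, the authors trimmed reads with Trimmomatic, aligned them to mm10 with BWA, pooled the samples of each combination of hybrid and tissue, and ran hotspot2 at an FDR of 5%. The deposited score is the −log10 FDR, from 1.30 to a ceiling of 100, and depth was not in these files. RNA-seq tables were not used here.

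Hotspots of 19 autosomes were merged, and regions, windows and patterns were computed with Python 3.11.15, NumPy 2.4.6 and SciPy 1.17.1. Genes came from GENCODE vM21 (basic, protein-coding). Patterns outside the sites were compared by exact permutation tests within hybrids, checked on simulated data. The same test, planned for the left-out hybrids, is not printed because they are not independent. Named sites were the 10 with hotspots in all 10 sets and the highest weakest within-set percentile, ties by common width. Named genes were the 15 with most sites and listed genes with 4 or more, a few of which are not reported here. The members, lists and patterns were chosen with earlier results of these data known. Alternatives were other limits, an FDR of 1%, the top 75000 hotspots, other overlaps and windows, and each hybrid left out.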

Additional observations from a re-analysis of the deposited data

Results flagged for a closer look

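Among 14 groups of 5 hybrids tested for a value far from the others (Dixon's ratio of gap to range over 0.71 for 5 values), 1 passed. Chance gives about 1 in 20 for each group, so 1 pass among 14 is not unusual. The group that passed was the HNF1 share of kidney hotspots outside the sites. It was 0.743% in B6xCAST and 0.927% to 0.974% in the other 4 hybrids, a gap of 0.796 of the range. The B6xCAST kidney value still lay above all 5 liver sets (0.409% to 0.602%) and all lung and B cell sets (highest 0.257%). B6xCAST is also the hybrid in which kidney and lung shared more regions than liver and kidney, and whether the 2 are related was not tested.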

How the results depend on the processing

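The held-out difference stayed positive in the alternatives run, at 89.0 points at an FDR of 1%, 91.0 with the top 75000 hotspots, 93.5 with 4 of 4 sets and 87.2 to 89.8 with a hybrid left out. The number of patterns past the threshold outside the sites ran from 6 (top 75000 hotspots) to 10 (labels exchanged over all 20 sets), and from 7 to 9 with a hybrid left out. CTCF, NFI and SP and KLF lost the threshold with the top 75000 hotspots, and CTCF and SP and KLF without B6xC3H or B6xPWK, while ONECUT passed with labels exchanged over all 20 sets (adjusted exact p = 0.0336). HNF1, HNF4, ETS, PU.1, RUNX and the ERR and NR5A pattern stayed past it under these alternatives and with 100 and 400 bp windows or an FDR of 1%. The count of sites was 21249 with 2 of 5 sets, 19957 with 1 lung or B cell set allowed, 15376 with merging at 50 bp of overlap, 8138 with 5 of 5 sets, 6338 with the top 75000 and 12977 to 15057 with a hybrid left out. Stem cell DNase shares moved to 5.09% with 5 of 5 sets, 5.99% at an FDR of 1%, 10.5% with the top 75000, 7.10% with 1 lung or B cell set allowed and 4.33% in the 200 bp window. CTCF shares moved to 5.2% (2 of 5 sets), 3.62% (5 of 5), 5.22% (FDR of 1%), 7.37% (top 75000), 6.56% (1 set allowed) and 3.66% (window). HNF1 shares moved to 3.22% (2 of 5), 4.89% (5 of 5), 5.02% (top 75000), 3.37% (1 set allowed), 2.88% (100 bp window) and 4.42% (400 bp). HNF4 shares moved to 4.55% (2 of 5), 6.18% (5 of 5), 4.43% (1 set allowed) and 4.36% (100 bp). With a hybrid left out, the ranges were 5.34% to 6.70% for DNase, 4.09% to 5.78% for CTCF, 3.86% to 4.07% for HNF1 and 5.15% to 5.46% for HNF4. The cause of these moves was not tested. Genes with a site numbered 4786 by gene body alone and 7252 by nearest TSS, by which Pard3 held the most. The tests were paired by hybrid, since the authors pooled the samples of each hybrid and tissue and each hybrid gave all 4 tissues.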

Other observations

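Some sites lay close together, which was not compared with other regions. Of the 15152 sites, 4688 (30.9%) had another site within 10 kb, and 41 runs held 5 or more. The longest run held 11 sites over 50.6 kb of chromosome 14 (66104921 to 66155484), across Ephx2, Ptk2b and Chrna2. A run of 8 covered 34.9 kb at Hsd17b2, a steroid dehydrogenase gene on chromosome 8, and runs of 7 lay at Hnf4a, at Elovl6, a fatty acid elongase gene, and next to Adra2b and Astl. These runs were picked by length after the data were seen.

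Lung and B cell hotspots were often close by. A lung hotspot of any hybrid lay within 1 kb of 4411 sites (29.1%) and a B cell hotspot within 1 kb of 2593 (17.1%), beside 28.8% and 16.1% for liver only regions.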
